A study of Mus musculus with 4 samples.

Results

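Chat, Slc18a3, Slc5a7, Ache, Isl1, Mnx1, Chodl and Lhx4 are 8 genes of cholinergic and motor neurons, and they were followed here over 4 arrays of mouse hindbrain and spinal cord. They were taken as every non-control probe that the array files name with one of these symbols, which gave 19 of 56605 probes and 8 of the 26844 genes with a name. Chat had 6 probes, Slc18a3 had 1 and each of the other 6 genes had 2. Of the 19 probes, 11 were well above background on all 4 arrays, 4 on some arrays and 4 on none. Mnx1 was the only member without a probe above background on all 4.

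The study set transgenic mice, which the submitters call MSA Tg, against wild-type mice at 24 weeks of age in 2 tissues, brainstem/cerebellum and spinal cord. MSA stands for multiple system atrophy in the field, a neurodegenerative disease of movement and autonomic function in which alpha-synuclein collects in oligodendrocytes. All mice share a mixed background of C57BL/6, 129 and C3H, and every sample title begins with PLP. The transgene, its promoter, the sex and number of the mice and any pooling are not given in the sources used here. With 1 array for each genotype in each tissue, nothing could be checked against replicates or tested, and the values below describe these 4 arrays.

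Cholinergic neurons make acetylcholine from choline and acetyl-CoA with choline acetyltransferase (Chat), load it into vesicles with the vesicular acetylcholine transporter (Slc18a3), and take choline back up through the high-affinity choline transporter (Slc5a7) after acetylcholinesterase (Ache) has split the transmitter. In hindbrain and cord these enzymes and transporters are best known from the somatic and visceral motor neurons of the cranial nerve nuclei and the ventral horn, with further cholinergic cells among interneurons and in the tegmentum. Isl1, Mnx1 and Lhx4 are homeodomain transcription factors that specify motor neurons during development, and Chodl (chondrolectin) is a membrane lectin best known from fast motor neurons.

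Values are log2 of the processed signal of a probe minus log2 of the array's 75th percentile, so a difference of -1 is a 2-fold lower scaled signal. The 75th percentile lay between 414 and 463 on 3 arrays, which share a slide, and at 686 for wild-type cord, which lay on another slide. Slide and genotype therefore cannot be told apart in the cord, nor slide and tissue in wild type, whereas the genotype comparison in brainstem/cerebellum and the tissue comparison in transgenic mice each lie within 1 slide. Between 59.2% and 64.0% of the 59305 non-control spots on an array were well above background, and none was saturated. The error given with a difference is a technical SD, taken from 300 probes with 10 spots each on the same array, and it covers neither mice nor extractions. Most of these probes are bright, and below a signal of 256 each SD rests on only 1 to 4 readings of a probe on an array. The source label reads brain for all 4 samples and the tissue label tells the cord apart, which the marker genes followed: 8 of 8 posterior Hox genes were above background on both cord arrays, against 3 of 8 in transgenic and 2 of 8 in wild-type brainstem/cerebellum. The cerebellar granule cell gene Gabra6 was above background on the brainstem/cerebellum arrays only.

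In brainstem/cerebellum, 6 of the 7 members measured on both arrays had a lower value on the transgenic array, and Chodl and Lhx4, 2 of 7, were lower by at least 2-fold. Over all 16821 genes measured there, 0.291% were at least 2-fold lower and 2.71% at least 2-fold higher, and no member was 2-fold higher. In spinal cord all 7 measured members had a lower value on the transgenic array. Of these, the Chat difference of -0.12 was within its technical SD of 0.12. The sign for Isl1 changed in 1 of 7 other normalizations. Chodl, Lhx4 and Ache, 3 of 7, were lower by at least 2-fold, against 6.40% of 17111 genes lower and 8.50% higher. The median difference of the members was -0.72 in brainstem/cerebellum and -0.99 in cord, beside medians of -0.06 and -0.05 over all genes. With both all-gene medians below 0, more genes had a lower value than a higher one on the transgenic array of each tissue. In bulk tissue, fewer cells of a type and less RNA per cell cannot be told apart.

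**Figure D1:**
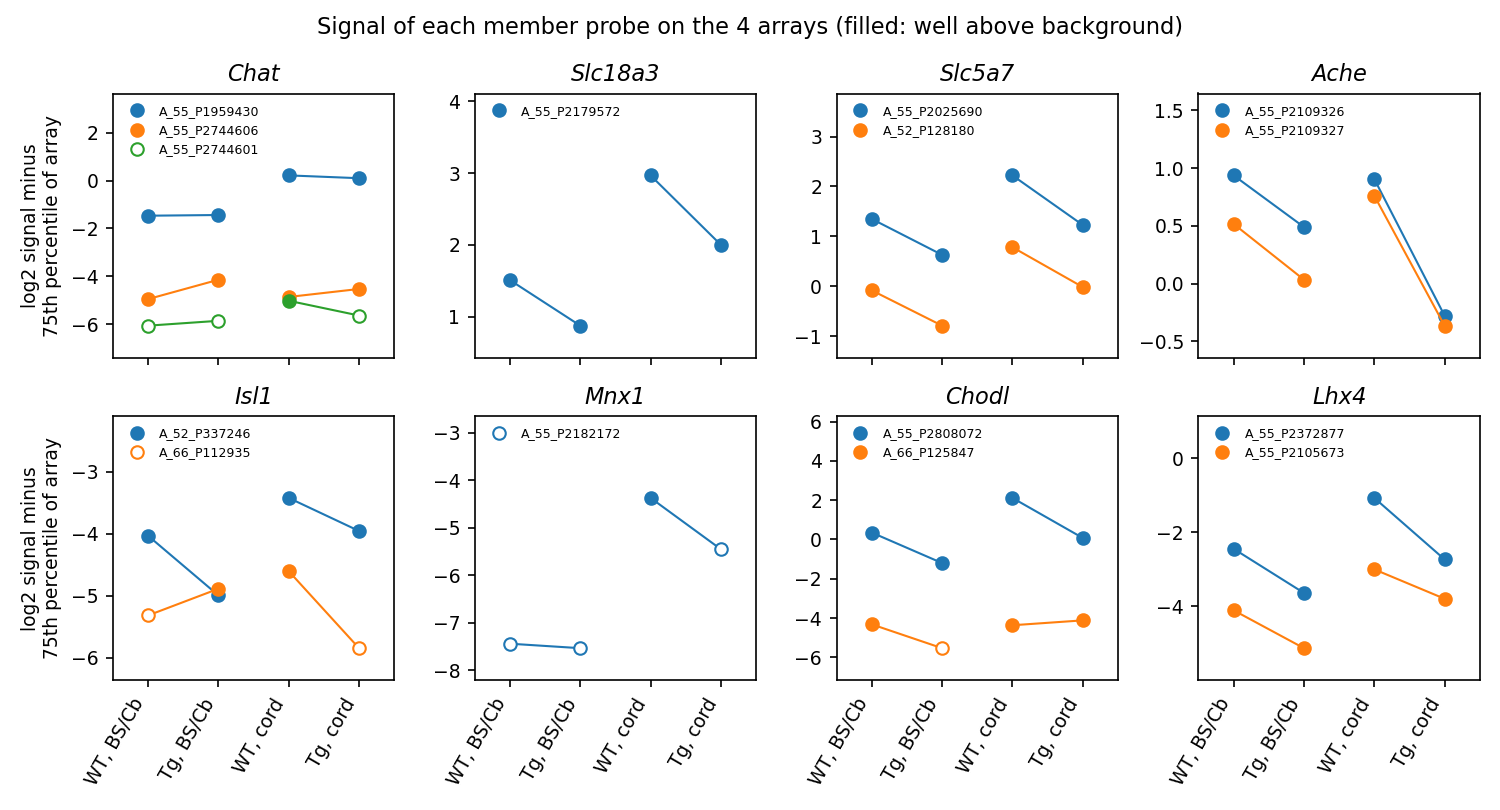
Scaled log2 signal (y axis, log2 signal minus the 75th percentile of the array) of each member probe above background on at least 1 array, with the 4 arrays on the x axis (WT, wild type; Tg, transgenic; BS/Cb, brainstem/cerebellum). Each colour is 1 probe, filled points are well above background, and lines join the 2 genotypes of a tissue; the y axes differ between genes, and the brightest Chat probe is nearly level between genotypes where Slc18a3, Slc5a7, Ache, Chodl and Lhx4 slope down.

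Chodl had the largest genotype difference of the members in both tissues. Its brighter probe, A_55_P2808072 (mm9 chr16:78951914-78951973, plus strand), read -1.20 in transgenic and 0.35 in wild-type brainstem/cerebellum, and 0.08 in transgenic and 2.12 in wild-type cord. The wild-type cord array was highest, the transgenic brainstem/cerebellum array lowest, and the other 2 arrays lay between them. In brainstem/cerebellum the transgenic level was 34.1% of wild type (difference -1.55, technical SD 0.12). In cord it was 24.3% of wild type (difference -2.04, technical SD 0.12). In the order of all genes from the lowest difference, Chodl stood at place 11 of 16821 in brainstem/cerebellum and place 110 of 17111 in cord. Over 7 other normalizations the differences ran from -1.74 to -1.30 and from -2.40 to -1.84.

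The other Chodl probe did not follow this in cord. A_66_P125847 (mm9 chr16:78941612-78941671) lies nearer the transcript's start, at base 642 of the sequence the array design names against base 2470 for the brighter probe. It read -4.32 in wild-type brainstem/cerebellum, -4.12 in transgenic cord and -4.37 in wild-type cord, and was not well above background in transgenic brainstem/cerebellum. The 3 measured values lay close together, and the cord difference was 0.25 (technical SD 0.21). In brainstem/cerebellum the transgenic signal was at least 2.13-fold lower, a bound set by the dimmest signal that counts as above background on the transgenic array. The sequences are shown because the 2 probes report different stretches of the transcript, and the brighter one holds the polyadenylation hexamer AATAAA, in capitals in the 30 bases around it.
Chodl A_55_P2808072, 30 bases: cacttttacccaAATAAAgagttcttgttt
Chodl A_66_P125847: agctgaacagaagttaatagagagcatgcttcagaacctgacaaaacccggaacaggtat

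Lhx4, which acts with Lhx3 in the motor neuron programme, had the next largest differences. Its brighter probe, A_55_P2372877 (mm9 chr1:157545170-157545229, minus strand), read -3.64 in transgenic and -2.44 in wild-type brainstem/cerebellum, and -2.73 in transgenic and -1.07 in wild-type cord. Wild-type cord was again highest and transgenic brainstem/cerebellum lowest, while wild-type brainstem/cerebellum and transgenic cord lay within 2 technical SDs of each other. The differences were -1.19 (technical SD 0.17) and -1.66 (technical SD 0.15), or 43.8% and 31.6% of the wild-type level. The second probe, A_55_P2105673 (mm9 chr1:157548856-157548915), read -5.13 and -4.10 in brainstem/cerebellum and -3.79 and -3.00 in cord, transgenic first, with differences of -1.02 (technical SD 0.34) and -0.79 (technical SD 0.21). Both Lhx4 probes had lower values on the transgenic array of each tissue, but over the other normalizations the second probe came as near 0 as -0.27 in brainstem/cerebellum and -0.06 in cord.

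Lhx4 signals were low, between 37.3 and 327 units for the brighter probe, and its size depended on how background was treated. With the normexp background correction in place of the scanner's subtraction, the brighter probe's difference was -0.57 in brainstem/cerebellum, short of 2-fold, and -0.98 in cord, while the sign stayed below 0. The hexamer AATAAA also occurs in both Lhx4 probes, and 30 bases around it are shown as a feature that both share although they lie apart in the gene.
Lhx4 A_55_P2372877, 30 bases: atggtaaaactgtaaAATAAAgatggaaat
Lhx4 A_55_P2105673, 30 bases: actaattttcaaAATAAAgtcagttctaaa

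Isl1, an early factor of all somatic and visceral motor neurons, was measured by A_52_P337246 (mm9 chr13:117088774-117088833, minus strand). It read -5.00 in transgenic and -4.03 in wild-type brainstem/cerebellum, and -3.96 in transgenic and -3.42 in wild-type cord. The transgenic brainstem/cerebellum value lay apart below the other 3. The differences were -0.96 (technical SD 0.34) and -0.53 (technical SD 0.21), both short of 2-fold. After normexp with 75th-percentile scaling they were -0.25 and 0.14, so the direction in cord depended on the background correction. The second probe, A_66_P112935 (mm9 chr13:117099604-117099663), was above background on the transgenic brainstem/cerebellum and wild-type cord arrays only. Its bounds point in opposite directions, with the transgenic signal at least 1.29-fold higher in brainstem/cerebellum and at least 1.62-fold lower in cord. In log2 these bounds are 0.37 and -0.70, beside technical SDs of 0.42 and 0.69, so neither direction stands clear of spot error.

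Mnx1 (also called HB9), the postmitotic marker of somatic motor neurons, was near the floor of the arrays. A_55_P2182172 (mm9 chr5:29799801-29799860, minus strand) gave signals of 2.49 and 2.56 in brainstem/cerebellum and 9.45 and 33.1 in cord, transgenic first. Only the wild-type cord value was well above background. There the transgenic signal was at least 1.90-fold lower (technical SD 0.32 in log2). Within wild type the cord signal was at least 1.85-fold higher than in brainstem/cerebellum (technical SD 0.68 in log2). The second probe, A_55_P2503740 (mm9 chr5:29800700-29800759), was above background on no array. The pair is printed because the undetected probe reads through the homeobox, whereas the detected one ends in the hexamer AATAAA.
Mnx1 A_55_P2182172, 30 bases: ccccagggtggagatggaatgtaaAATAAA
Mnx1 A_55_P2503740: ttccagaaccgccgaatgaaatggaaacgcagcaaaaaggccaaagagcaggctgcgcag

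Both vesicular and plasma membrane transporters of the cholinergic terminal had lower values on the transgenic arrays. Slc18a3 (A_55_P2179572, mm9 chr14:33275627-33275686, minus strand) read 0.88 in transgenic and 1.51 in wild-type brainstem/cerebellum, and 2.0 in transgenic and 2.97 in wild-type cord. All 4 arrays differed from their neighbours in this order by more than 2 technical SDs. The transgenic level was 64.4% of wild type in brainstem/cerebellum (difference -0.63, technical SD 0.12). It was 51.1% of wild type in cord (difference -0.97, technical SD 0.10), just short of 2-fold.

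Slc5a7 was measured by 2 probes. A_55_P2025690 (mm9 chr17:54413269-54413328, minus strand) read 0.63 in transgenic and 1.35 in wild-type brainstem/cerebellum, and 1.23 in transgenic and 2.22 in wild-type cord. Wild-type brainstem/cerebellum and transgenic cord lay within 2 technical SDs of each other. The transgenic level was 60.7% of wild type in brainstem/cerebellum (difference -0.72) and 50.2% in cord (difference -0.99), just short of 2-fold. The other probe, A_52_P128180 (mm9 chr17:54413771-54413830), gave -0.79 and -0.08 in brainstem/cerebellum and -0.02 and 0.78 in cord, transgenic first. Its differences of -0.71 and -0.80 were close to those of the first probe.

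Among the brightest probes, the genotype difference of Ache was the most unlike between the tissues. A_55_P2109326 (mm9 chr5:137733122-137733181, plus strand) read 0.49 in transgenic and 0.94 in wild-type brainstem/cerebellum, and -0.28 in transgenic and 0.91 in wild-type cord. The wild-type arrays were alike within 2 technical SDs, and the transgenic cord array was lowest. The difference was -0.45 (technical SD 0.12) in brainstem/cerebellum and -1.18 (technical SD 0.12) in cord, or 73.4% and 44.0% of the wild-type level. A_55_P2109327 (mm9 chr5:137735513-137735572) read 0.03 and 0.52 in brainstem/cerebellum and -0.36 and 0.76 in cord, transgenic first, and its differences of -0.48 and -1.12 repeated the pattern. The cord difference minus the brainstem/cerebellum difference was -0.74 and -0.64 for the 2 probes, values that rest on 1 array per group and were not tested. The sequence of the first probe is given because it lies upstream of the second. It holds 2 reading frames open over its whole length, and the second probe holds 1.
Ache A_55_P2109326: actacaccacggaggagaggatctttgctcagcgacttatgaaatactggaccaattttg

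Chat, the enzyme that defines cholinergic neurons, did not share the lower values at its brightest probe. This probe, A_55_P1959430 (mm9 chr14:33221421-33221480, minus strand), read -1.44 in transgenic and -1.47 in wild-type brainstem/cerebellum, and 0.10 in transgenic and 0.22 in wild-type cord. Both cord arrays were high, both brainstem/cerebellum arrays low, and the genotypes lay within 2 technical SDs of each other in each tissue. The genotype differences were 0.03 and -0.12 (technical SD 0.12 each). The sign in brainstem/cerebellum changed in 4 of 7 other normalizations, over a range of -0.16 to 0.08. The second brightest probe, A_55_P2744606, spans 3918 bases of mm9 (chr14:33267898-33271815) with 60 bases of sequence, so it crosses an intron. It read -4.14 and -4.95 in brainstem/cerebellum and -4.53 and -4.86 in cord, transgenic first, with differences of 0.81 (technical SD 0.34) and 0.33 (technical SD 0.25). The cord value changed sign in 1 of the 7 normalizations.

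Another Chat probe, A_55_P2744601, spans 2024 bases (chr14:33260120-33262143) and was above background on the wild-type cord array only, where the transgenic signal was at least 1.21-fold lower. In log2 this bound is -0.28, smaller than the technical SD of 0.34. A_55_P2735415, A_55_P2744593 and A_55_P2744599 were above background on no array. A_55_P2744593 and A_55_P2744599 also cross introns. The end of the brightest probe and both intron-crossing probes with a signal above background are printed because they differ in kind. The brightest one ends in 22 bases of a GAAA repeat, in capitals, whereas the other pair holds no such repeat.
Chat A_55_P1959430, last 30 bases: gctattcaGAAAGAAAGAAAGAAAGAAAGA
Chat A_55_P2744606: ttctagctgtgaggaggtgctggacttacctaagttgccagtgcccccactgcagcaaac
Chat A_55_P2744601: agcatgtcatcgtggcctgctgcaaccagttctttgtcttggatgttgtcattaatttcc

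An unbroken run of 4 GAAA units occurs in 5 probes of the array, those named Chat, Siglech, AI790442, Syne2 and Coro2a, and all 5 were above background on all 4 arrays. Their cord minus brainstem/cerebellum differences in wild type were 1.68, 1.80, 1.11, 1.21 and 0.21 in this order. Their genotype differences in cord were -0.12, -1.61, 0.71, 0.41 and 0.38. The part of the repeat in the Chat signal was not tested.

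**Figure D2:**
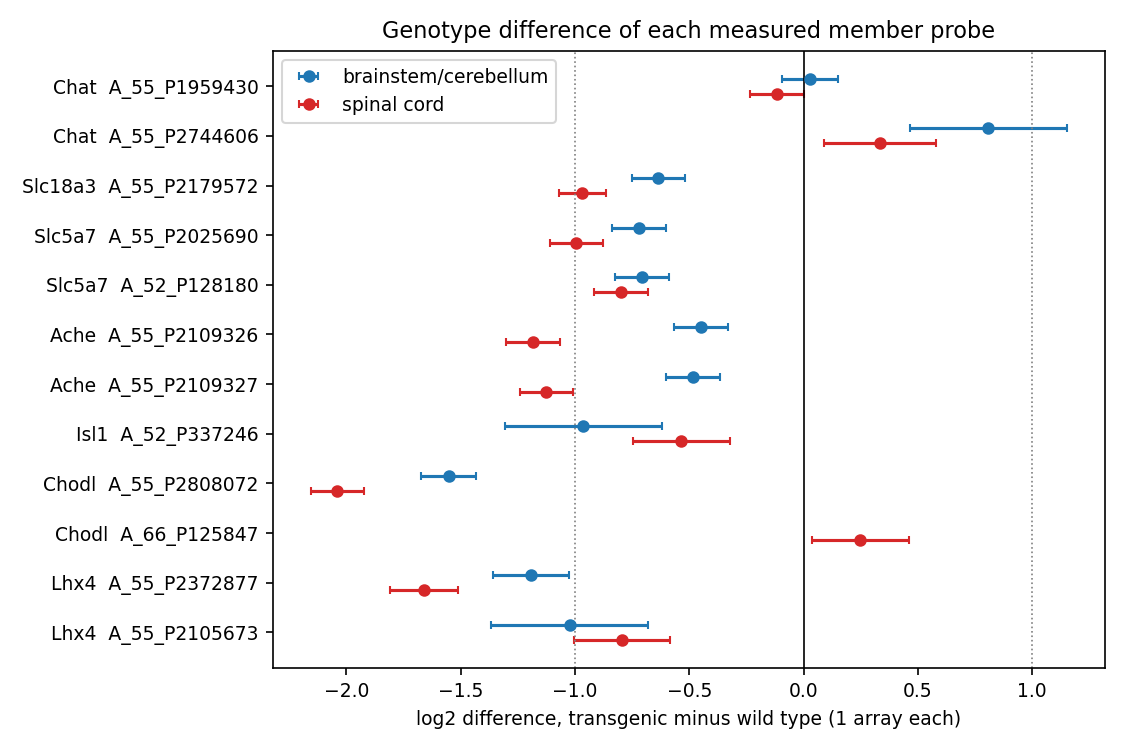
Log2 difference between the transgenic and the wild-type array (x axis) for each member probe measured on both arrays of a tissue (y axis), in blue for brainstem/cerebellum and red for spinal cord, with 1 technical SD of a spot difference as the bar. Dotted lines mark 2-fold; Chodl A_55_P2808072 lies farthest to the left at -1.55 and -2.04, and both Chat probes lie at or to the right of -0.12.

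Chat and Slc18a3 share a locus, with Slc18a3 nested in the 5' part of Chat, and the start sites in RefSeq are 1059 bases apart. At this locus the genotype difference in cord was -0.12 for the brightest Chat probe and -0.97 for Slc18a3. The 250 bases upstream of both starts, and of Chodl, which had the largest difference, are printed from RefSeq on build GRCm38.p6 as the data set the members of the locus apart. All 8 members had a promoter entry. The core homeodomain motif TAAT was searched on both strands and is in capitals (as TAAT or ATTA).
Chat upstream, chr14:32465910-32466159, minus strand: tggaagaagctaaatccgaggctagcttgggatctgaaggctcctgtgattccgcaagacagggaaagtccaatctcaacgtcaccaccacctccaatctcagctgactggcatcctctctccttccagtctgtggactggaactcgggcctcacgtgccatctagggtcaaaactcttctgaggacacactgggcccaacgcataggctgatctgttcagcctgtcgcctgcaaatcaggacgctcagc
Slc18a3 upstream, chr14:32464851-32465100, minus strand: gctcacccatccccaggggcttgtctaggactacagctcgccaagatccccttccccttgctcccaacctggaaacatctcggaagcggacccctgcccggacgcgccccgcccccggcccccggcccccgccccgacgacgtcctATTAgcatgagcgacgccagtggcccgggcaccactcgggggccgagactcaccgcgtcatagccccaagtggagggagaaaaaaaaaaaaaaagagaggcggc
Chodl upstream, chr16:78930698-78930947, plus strand: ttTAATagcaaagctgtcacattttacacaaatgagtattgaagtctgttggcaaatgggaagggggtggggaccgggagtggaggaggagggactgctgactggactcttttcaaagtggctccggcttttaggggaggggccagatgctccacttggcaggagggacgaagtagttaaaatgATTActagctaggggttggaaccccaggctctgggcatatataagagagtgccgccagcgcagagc

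TAAT occurred in 4 of the 8 upstream windows: 2 times each in Chodl and Isl1, 1 time each in Slc18a3 and Mnx1, and not in Chat, Slc5a7, Ache or Lhx4. Of 27025 mouse promoters of the same length 55.3% hold it. The longer TAATTA, which contains TAAT, occurred in none of the 8 and in 4.9% of all promoters. The E-box CANNTG occurred in 7 of the 8, all but Lhx4, beside 66.0% of all promoters. The GC box GGGCGG occurred in 4 of the 8, with 4 copies in Ache, 2 in Slc18a3 and 1 each in Mnx1 and Lhx4, beside 32.9% of all promoters. These matches describe letters in a window and say nothing of binding.

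The tissue comparison sets cord against brainstem/cerebellum within each genotype. In wild type, 6 of 7 measured members were higher in spinal cord and 4 of 7, Chat, Slc18a3, Chodl and Lhx4, by at least 2-fold, against 6.74% of 16774 genes higher and 4.24% lower. The median of the members was 1.37, beside -0.02 over all genes. Chodl was 3.4-fold higher in cord, Chat 3.21-fold, Slc18a3 2.75-fold and Lhx4 2.59-fold, each from its brightest probe. Slc5a7 was 1.83-fold and Isl1 1.53-fold higher, and Ache differed by -0.03, within its technical SD. The other Chodl probe, A_66_P125847, did not show the cord excess, with a difference of -0.05 (technical SD 0.21). The other Ache probe, A_55_P2109327, was higher in cord by 0.24 (technical SD 0.12).

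In transgenic mice the members also leaned toward the cord. Chat, Slc18a3, Isl1 and Chodl, 4 of 7, were at least 2-fold higher there, against 10% of 16917 genes higher and 6.24% lower, and the median was 1.04 beside -0.02 over all genes. Chat was 2.90-fold higher, Chodl 2.43-fold, Slc18a3 2.18-fold and Isl1 2.06-fold. Lhx4 was 1.87-fold and Slc5a7 1.51-fold higher. Ache was 1.70-fold lower in transgenic cord than in transgenic brainstem/cerebellum, a difference of -0.77. Its other probe gave -0.40. Among other probes in transgenic mice, that of Lhx4 was 2.52-fold higher in cord and that of Chodl at least 2.45-fold higher. The second Isl1 probe was at least 1.33-fold lower in cord, a bound of -0.41 in log2 beside a technical SD of 0.73. The second Chat probe did not show the cord excess, with tissue differences of 0.09 (technical SD 0.34) in wild type and -0.39 (technical SD 0.25) in transgenic mice.

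**Figure D3:**
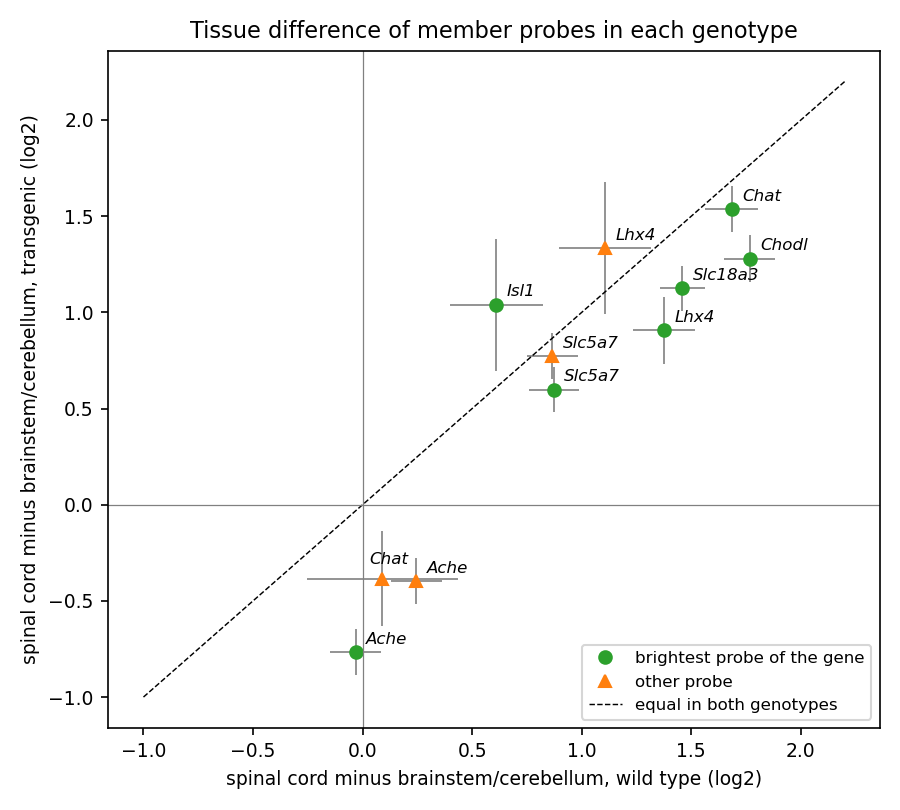
Log2 difference between spinal cord and brainstem/cerebellum in wild-type (x axis) and transgenic mice (y axis) for member probes measured on all 4 arrays, with technical SDs as bars; circles are the brightest probe of a gene and triangles other probes. The dashed line marks equal differences: most brightest probes lie below it, Isl1 lies above it at 0.61 and 1.04, and Ache lies at -0.03 and -0.77.

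Over the brightest probes, the wild-type cord array was highest for 6 of 7 members and the transgenic brainstem/cerebellum array lowest for 5 of 7. The same held for 27.5% and 19.9% of the 16366 genes above background on all 4 arrays. Ache was the exception at the top, where both wild-type arrays were alike. At the bottom Ache had its lowest value on the transgenic cord array and Chat on the wild-type brainstem/cerebellum array. Between genotypes, 10 of 11 measured member probes in brainstem/cerebellum and 9 of 12 in cord were beyond 2 technical SDs of 0, beside 31.6% and 62.6% of all measured probes. Most probes of the array passed that limit in cord, so it sets no member apart there.

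General neuronal genes had smaller differences between genotypes. At their brightest probes the 8 pan-neuronal markers had a median difference of -0.20 in brainstem/cerebellum, 6 of 8 below 0, and of -0.47 in cord, 8 of 8 below 0, and none was 2-fold lower in either tissue. Over all 23 measured probes of these markers, 15 in brainstem/cerebellum and 21 in cord were below 0, and the cord values ran from -1.67 (a Snap25 probe) to 0.66 (a Stmn2 probe), with 2 probes at least 2-fold lower. Set relative to the median level of these markers, an alternative added after seeing the data, Chodl was at -1.36 and -1.47, Lhx4 at -1.0 and -1.09, Slc5a7 at -0.53 and -0.43, Slc18a3 at -0.44 and -0.40, and Ache at -0.25 and -0.62, brainstem/cerebellum first. Isl1 was at -0.77 and 0.03, and Chat at 0.22 and 0.45. On that scale Chat was above 0 in both tissues, and Chodl and Lhx4 were the members at least 2-fold lower in each tissue.

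Markers of neighbouring tissues differed between the arrays too. The summed scaled level of 9 skeletal muscle genes was 2.75 in transgenic and 4.0 in wild-type cord, with 7 and 8 of 9 genes above background and Myog on no array. That of 5 Schwann cell genes, which mark nerve roots, was 8.41 and 19.7 in cord, with 4 of 5 genes above background on each array, and 1.06 and 1.08 in brainstem/cerebellum. That of 8 sensory ganglion genes ranged from 1.51 to 2.79 over the 4 arrays, and Trpv1, Scn10a and Mrgprd were above background on none. Pou4f1 made up most of this sum on each array. Its brightest probe had a genotype difference of 0.88 in cord, where its other probes gave -0.83 and -0.64. Microglial and macrophage markers had summed levels of 193 in transgenic and 87.7 in wild-type cord, with all 8 above background on every array. In brainstem/cerebellum the sums were 75.8 and 50.8, transgenic first. In cord 6 of the 8 had differences above 0 and 2 below, P2ry12 at -0.23 and Itgam at -0.28, where another Itgam probe gave 0.21. The part of root, muscle or microglial RNA in the members' differences was not tested.

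Other genes of acetylcholine signalling followed the members only in part. Of 14 genes of choline and acetylcholine metabolism, 13 were measured, and in brainstem/cerebellum none was 2-fold different, with a median of 0.04. In cord 2 were at least 2-fold higher and 2 lower, with a median of 0.11. Slc44a3 and Slc44a1, choline transporter-like proteins, were higher by 2.28 and 1.14 in transgenic cord and by 0.49 and 0.28 in brainstem/cerebellum. Chdh, which oxidises choline, had differences of 0.04 in brainstem/cerebellum and -1.44 in cord, and Pcyt1b, an enzyme of phosphatidylcholine synthesis, had -0.33 and -1.24.

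Of 16 nicotinic receptor subunits, 6 were measured in brainstem/cerebellum and 7 in cord. None was 2-fold different in brainstem/cerebellum, with a median of -0.02, while in cord 7 of 7 were below 0 and 2 were at least 2-fold lower, with a median of -0.54. Chrnb2, the common beta subunit of brain receptors, read 0.39 and 0.53 in brainstem/cerebellum and -1.21 and 0.85 in cord, transgenic first, so transgenic cord stood apart from the other 3 arrays (difference -2.07). Chrna2, the subunit known from Renshaw cells, which motor neuron collaterals excite, had differences of -0.50 and -1.37. Chrna4 had 0.47 and -0.54, and Chrne, the adult muscle subunit, 0.36 and -0.57.

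The 6 accessory proteins of nicotinic receptors had medians of -0.30 and -0.32, with none 2-fold different. Lynx1, a toxin-like brake on these receptors, had -0.32 and -0.46, Lypd1 -0.51 and -0.82, the chaperone Tmem35a -0.47 and -0.76, and Ly6e 0.15 and 0.83. Of 5 muscarinic receptors, 2 were measured in brainstem/cerebellum and 3 in cord, all below 0 and none 2-fold different at its brightest probe. Chrm2 had -0.15 and -0.57, Chrm3 -0.40 and -0.44, and Chrm1 -0.43 in cord, where another Chrm1 probe gave -1.48.

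Of 12 further motor neuron transcription factors 10 were measured in each tissue. Their median was -0.01 in brainstem/cerebellum, with none 2-fold different, and -0.68 in cord, with 4 at least 2-fold lower and 1 higher. Isl2, a factor of somatic motor neurons, read -2.93 in transgenic and -1.85 in wild-type cord (difference -1.09), and in brainstem/cerebellum it was above background on the transgenic array only. Esrrg, known from gamma motor neurons, had -0.19 and -1.09, and another Esrrg probe gave -1.14 in cord. Onecut1 had 0.06 and -1.55, but its other probe gave -0.11 and 0.34. Phox2a, a factor of visceral and branchial motor neurons and of noradrenergic cells, had 0.16 and 1.51.

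Of 20 motor neuron effector genes 19 were measured in each genotype comparison. In brainstem/cerebellum the median was -0.14 with 1 gene at least 2-fold lower, and in cord it was -0.30 with 7 lower and 2 higher. Calcb, a calcitonin gene-related peptide of motor and sensory neurons, had -1.08 and -2.19. Mmp9, a protease known from fast motor neurons, had -1.0 and -1.67, the first just under 2-fold. Spp1 (osteopontin), known from alpha motor neurons and also from activated microglia, was higher by 0.96 and 2.46, and Anxa4 by 0.54 and 1.98. Lhx8, a factor of cholinergic neurons of the forebrain, had 0.04 and -0.28, and Gbx1, a homeodomain factor, had -0.15 and 0.06.

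**Figure D4:**
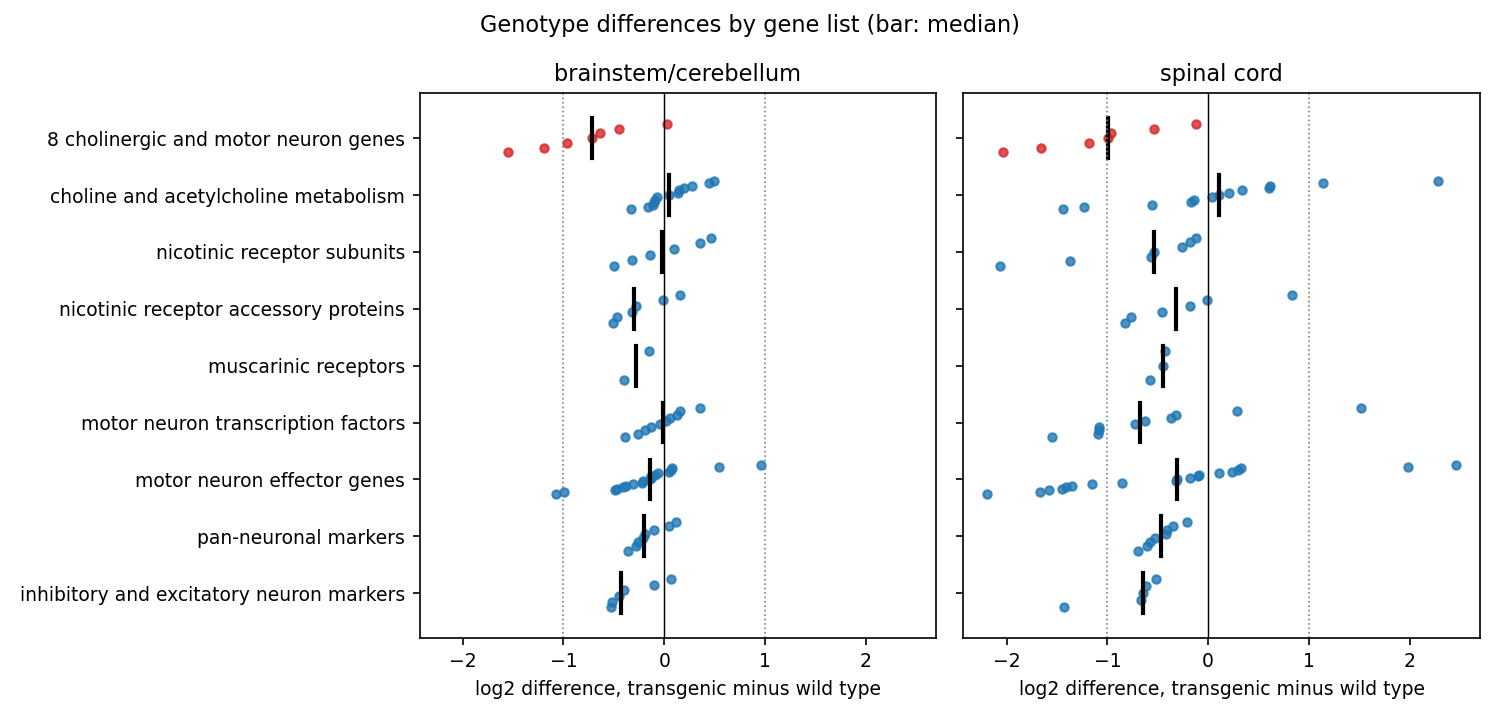
Log2 difference between the transgenic and the wild-type array (x axis) for the genes of each list that were above background on both arrays, each at its brightest probe, in brainstem/cerebellum (left) and spinal cord (right). Each point is 1 gene, black bars are medians and dotted lines mark 2-fold; the 8 cholinergic and motor neuron genes (red, 7 measured) have medians of -0.72 and -0.99, and the pan-neuronal markers of -0.20 and -0.47.

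The profile of Chat, Slc18a3 and Slc5a7 over the 4 arrays, each centred on its own mean, averaged -0.83 on transgenic and -0.39 on wild-type brainstem/cerebellum, 0.26 on transgenic and 0.95 on wild-type cord. Among 16366 genes above background on all 4 arrays, the 8 with the smallest root mean square distance to it were Enpp1, Slc36a2, Fat4, Pf4, Susd2, Nipal4, Tacr1 and Cep55, at 0.05 to 0.08. Over 4 arrays such a distance rests on 4 values per gene. Of the members, Slc18a3 stood at place 22 in this order, Isl1 at 233, Slc5a7 at 243, Chat at 444, Lhx4 at 1157, Chodl at 5258 and Ache at 11633. Slc18a3, Slc5a7 and Chat are part of the averaged profile themselves.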

How the data were processed

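Total RNA of 4 samples, 1 per genotype and tissue, was extracted with TRIzol, column-purified, amplified, labelled with Cy3 and hybridised to 1-colour Agilent arrays, per the labels. The deposited scanner files hold linear spot intensities. Per the file headers they are background-subtracted and detrended within the array and come from Feature Extraction 10.7.1.1, whereas the submitters' processing notes give 9.5.1.1. The series table's intensities, also deposited by the authors, had an identical median of 30.4 in each column and followed a quantile normalization of the scanner values (Pearson r 0.99999). They served as an alternative.

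Here, log2 of the processed intensity minus log2 of the 75th percentile of all non-control spots was taken, outlier-flagged spots were left out, and spots of a probe were averaged. Each gene was represented by its brightest probe (by the 4-array mean), and other probes are given for the members and, for genes named with a difference, where they differ in sign or in passing 2-fold. Of 56605 probes, 45952 were named from the files and a RefSeq gene table. Genes well above background on both arrays entered a comparison, with 2-fold as the threshold. For a probe above background on 1 array only, a bound replaced the difference: the dim side was set to its own value or to the array's lowest above-background signal, whichever was greater. A bound takes no account of technical error. The calculation was tested on simulated data that held changes larger than the threshold and spot error alone. This checks the calling step and cannot speak to variation between mice, extractions or slides. Alternatives were scaling on the median or the spike-in probes, quantile normalization, cyclic loess, normexp (limma 3.58.1 in R 4.3.3, offset 50), the authors' values, stricter and looser background filters, averaging a gene's probes, and thresholds of 1.5-fold and 3-fold.

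The members and the gene lists were chosen with earlier results of these data known. Named genes are all members, up to 4 genes per cholinergic or motor neuron list with the largest genotype difference in either tissue, and the 8 genes most like the averaged profile of Chat, Slc18a3 and Slc5a7. A gene that these rules name, and the counts of its list, are not reported here. Probe coordinates are mm9, from the files, and promoters are GRCm38.p6; the builds were not mixed.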

Additional observations from a re-analysis of the deposited data

Results flagged for a closer look

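The genotype difference of Chrna4, a nicotinic receptor subunit, had opposite signs in the 2 tissues. It was 0.47 in brainstem/cerebellum and -0.54 in spinal cord, so that the cord difference minus the brainstem/cerebellum difference was -1.01. The tissue difference of the Ache probe A_55_P2109327 had opposite signs in the 2 genotypes, 0.24 in wild type and -0.40 in transgenic mice, a gap of -0.64. Each group is 1 array, and neither difference between groups was tested.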

How the results depend on the processing

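Counts of members past 2-fold moved by more than 1.5 times as follows. Members lower on the transgenic brainstem/cerebellum array, 2 as reported, were 1 after normexp with either scaling, 5 at a threshold of 1.5-fold and 0 at 3-fold. Members lower on the transgenic cord array, 3 as reported, were 5 after scaling on the median, 5 after scaling on the spike-in probes and 5 at 1.5-fold. Smaller moves of this count were to 2 with the mean of probes, 2 at 3-fold and 4 without the filter on dim probes. After normexp with 75th-percentile scaling it stayed at 3, but Slc5a7 passed 2-fold there at -1.08. Members higher in wild-type cord than in brainstem/cerebellum, 4 as reported, were 2 with the mean of probes and 2 at 3-fold. In transgenic mice the same count, 4 as reported, was 1 with spike-in scaling and 0 at 3-fold, and members lower in cord, 0 as reported, were 1 with spike-in scaling and 1 at 1.5-fold. No difference past 2-fold changed sign. Over the normalizations, 238 values of single probes stayed within 1 technical SD and 84 moved further. With spike-in scaling the all-gene median shifted by -0.36 in the cord genotype comparison, where 25.5% of 2-fold calls were then higher, against 57.0%, and by -0.36 in the transgenic tissue comparison, 30.8% against 61.7%. Scaling on the median shifted it by -0.19 in the brainstem/cerebellum genotype comparison (74.1% against 90.3%) and by -0.13 in the wild-type tissue comparison (48.7% against 61.4%). After normexp with 75th-percentile scaling 184 genes were 2-fold higher and 14 lower in brainstem/cerebellum, against 456 and 49, and 1041 and 562 in cord, against 1454 and 1095. No paired analysis was possible because each group holds 1 array. With 1 array per group, replicates could not be left out, and probes near background, among them those of Isl1, Mnx1 and the dimmer probes of Chat, Chodl and Lhx4, carry the largest technical error, with an SD between paired spots of 0.94 at the dimmest signals and 0.09 at the brightest.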

Other observations

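Neurofilament genes, chosen after their values were seen, stood among the motor neuron effector genes lower by at least 2-fold on the transgenic cord array. Nefh had differences of -0.41 in brainstem/cerebellum and -1.41 in cord, Nefm -0.31 and -1.35, and Nefl -0.47 and -1.15, where the other Nefl probe gave -0.30 and -0.58. Other Nefm probes ranged from -0.62 to 0.03 in brainstem/cerebellum, and the one measured in cord gave -1.24. Prph (peripherin), an intermediate filament of neurons that project to the periphery, had -0.22 and -0.09. Among markers of other transmitter types, also named after their values were seen, the glycine transporter gene Slc6a5 had -0.53 and -1.43, Gad1 -0.10 and -0.52, Gad2 -0.52 and -0.64, and the vesicular glutamate transporter gene Slc17a6 -0.40 and -0.67. Another Gad1 probe had the opposite sign, 0.12 and 0.24, and other Gad2 probes ranged from -1.26 to 0.35 in brainstem/cerebellum, with the one measured in cord at -0.01. The direction for both Gad genes thus depends on the probe. Slc32a1, on the same list of 6 markers, had -0.45 and -0.62. At their brightest probes these 6 markers had a median of -0.43 in brainstem/cerebellum, with 5 of 6 below 0 and none 2-fold lower. Their median was -0.64 over the 5 measured in cord, where 1 was 2-fold lower.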
